A study of Mus musculus with 8 samples.

Results

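The plasma carrier and apolipoprotein genes of the yolk sac examined here were 10 of the 46078 gene IDs counted. They were the carriers Afp, Alb, Ttr, Rbp4 and Trf and the apolipoproteins Apoa1, Apoa4, Apob, Apoe and Apom, found by the symbols that the GENCODE M21 annotation gives to the Ensembl IDs. The genes were chosen by what their proteins do and with their counts in all 4 groups of cells already known, so their levels and fold changes are given as a description. Which of them passed the fit over all genes is given as a count, and no p-value or conclusion is drawn from it. RNA-sequencing was compared between 4 groups of 2 libraries, all from XY mouse cells of strain C57BL/6. The tcESCs were a male embryonic stem cell (ESC) line that carries the reporter tesco-cfp, in which a testis enhancer of Sox9 drives a cyan fluorescent protein. The tc;Sf1ESCs were 1 G418-selected clone of that line that overexpresses mouse Sf1 (the gene Nr5a1) from a transgene. Sertoli cell-like cells (SCLCs) were CFP-positive cells sorted at day 12 after tc;Sf1ESCs had been cultured first with CHIR99021 and TTNPB, an agonist of retinoic acid receptors, and then with CHIR99021, BMP7 and FGF9, so they carry the same reporter and transgene. The todPGCLCs were primordial germ cell-like cells sorted as GFP-positive cells at day 6 from testicular organoids. These had been made by aggregating epiblast-like cells with the Prdm1-gfp reporter and TesLCs, the kind of culture from which SCLCs are sorted. The paper describes this sort for TesLCs derived from tc;Sf1ESCs, which carry the Sf1 transgene. The ESCs from which the todPGCLCs came were not analysed here, so cell line and cell type cannot be told apart in that comparison.

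Visceral endoderm is the epithelium that surrounds the early embryo and later lines the outside of the yolk sac. Before the liver is formed it secretes proteins that carry lipids, retinol, hormones and metals, and the hepatocytes of the fetal liver later make many of the same proteins. Apolipoproteins are the protein part of lipoprotein particles: APOB is the structural protein of very-low-density particles, APOA1 that of high-density particles, and APOE binds lipoprotein receptors.

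The libraries held 25411033 to 30680191 counts on genes, and 3 counts, the smallest level taken as measurable, corresponded to 0.0978 to 0.118 CPM, the usual scaling of a gene's counts to its library's total. As a check of the transgene, Nr5a1 was counted 1 and 0 times in tcESCs, 52 and 30 in tc;Sf1ESCs, 341 and 535 in SCLCs and 6 and 5 in todPGCLCs. Markers of other cells were followed beside these genes. Of 14 Sertoli cell markers, 13 and 12 exceeded 3 counts in the SCLC libraries, where their levels summed to 835 and 822 CPM, against 40.1 to 227 CPM in the other groups. Most of that sum came from Gata4 and Cited2, and Gata4 also stands on the list of endoderm and liver regulators below. Of the other Sertoli cell markers, Fshr was at 0 counts in both SCLC libraries and Dhh at 5 and 1. Amh was at 10 and 22 against 15 to 24 in the ESC libraries. The 15 markers of visceral and primitive endoderm all exceeded 3 counts in both SCLC libraries and summed to 4849 and 7421 CPM, against 65.0 to 500.0 CPM elsewhere, and the 12 markers of parietal endoderm summed to 38688 and 38724 CPM against 822 to 1686 CPM. Most of the parietal sum came from the basement membrane genes Col4a1, Sparc, Lama1 and Lamb1, and Vim, on the same list, was lower in SCLCs, at 56.1 and 45.0 CPM against 515 and 522 in tc;Sf1ESCs. Of the 9 Sertoli cell markers that could be tested, 8 were called higher in SCLCs than in tc;Sf1ESCs and 0 lower, beside 24.1% and 18.1% of all genes, with a median log2 fold change of 3.53. Fshr and Dhh were too low to be among the 9. Sox9, at 46.7-fold, was among the 8, and so was Nr5a1, which these cells also carry as a transgene. Wt1 and Dmrt1, also among the 8, were at 756% and 453% of their SCLC level in todPGCLCs. The Sertoli cell markers were thus present in part, and the name SCLC is used here as the label of the libraries. The share that cells of each kind had in these results was not tested. In bulk RNA, fewer cells of a type and less RNA per cell cannot be told apart.

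Some of the genes are neighbours in the genome. On the GRCm38 build, Alb (chromosome 5, 90460897 to 90476602) and Afp (chromosome 5, 90490737 to 90508907) are 14135 bp apart on the plus strand. Apoa1 (chromosome 9, 46228580 to 46230466) and Apoa4 (chromosome 9, 46240696 to 46243459) are 10230 bp apart with Apoc3 between them, and Apoe (chromosome 7, 19696109 to 19699188) lies beside Apoc1, Apoc4 and Apoc2. Trf (chromosome 9, 103204001 to 103230444) is overlapped by Gm20425 on its own strand. Rbp4 (chromosome 19, 38116629 to 38125281), Apob (chromosome 12, 7977648 to 8016835) and Apom (chromosome 17, 35128997 to 35132050) lie at places of their own. RefSeq promoter windows, of 250 bases before and 50 after a start site on GRCm38.p6, were found for 8 of the 10 genes and not for Ttr and Trf. The bases upstream of 5 genes are shown, 5′ to 3′. They run only as far as the RefSeq start site or the annotated start of the gene, whichever comes first. Alb and Afp were chosen as neighbours that parted in level, and Apoa1, Apob and Rbp4 as the genes besides Ttr with the most counts gained. Each was also chosen because it holds a forkhead match. Capitals mark matches to the forkhead letters TGTTTAC or TGTTTGC, which FOXA proteins are known to bind, or to the homeodomain letters TTAATNATT, on either strand.

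Alb, chr5:90460620-90460869, plus strand: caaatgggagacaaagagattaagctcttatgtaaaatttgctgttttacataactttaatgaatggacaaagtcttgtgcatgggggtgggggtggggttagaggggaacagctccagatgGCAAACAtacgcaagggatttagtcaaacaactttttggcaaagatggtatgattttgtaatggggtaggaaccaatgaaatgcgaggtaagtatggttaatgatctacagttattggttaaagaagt
Afp, chr5:90490464-90490713, plus strand: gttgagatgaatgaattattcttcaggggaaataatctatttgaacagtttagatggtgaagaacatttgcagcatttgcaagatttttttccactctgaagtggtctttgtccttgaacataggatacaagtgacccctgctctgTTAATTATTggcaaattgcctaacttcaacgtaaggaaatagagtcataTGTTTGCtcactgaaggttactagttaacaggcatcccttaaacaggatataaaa
Apoa1, chr9:46228380-46228579, plus strand: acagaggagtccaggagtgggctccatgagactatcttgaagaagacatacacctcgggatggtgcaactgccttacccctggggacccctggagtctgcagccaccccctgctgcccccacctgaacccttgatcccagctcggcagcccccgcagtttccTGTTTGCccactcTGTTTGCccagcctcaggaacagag
Apob, chr12:7977427-7977647, plus strand: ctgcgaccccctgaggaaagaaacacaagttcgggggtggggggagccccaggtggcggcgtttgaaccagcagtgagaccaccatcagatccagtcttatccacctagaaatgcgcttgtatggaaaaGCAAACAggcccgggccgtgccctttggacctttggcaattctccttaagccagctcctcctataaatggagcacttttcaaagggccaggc
Rbp4, chr19:38125322-38125571, minus strand: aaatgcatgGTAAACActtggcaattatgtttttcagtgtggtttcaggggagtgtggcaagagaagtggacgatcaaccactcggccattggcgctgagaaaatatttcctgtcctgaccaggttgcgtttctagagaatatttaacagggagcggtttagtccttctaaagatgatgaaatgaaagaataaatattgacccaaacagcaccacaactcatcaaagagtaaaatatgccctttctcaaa

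A forkhead match was present in 6 of the 11 windows of these genes, against 8.48% of all 32851 windows of the same length. The matches came from 6 of the 8 genes with a window, for which a share of all genes is not given. Alb, not measurable, and Apoe, not called between SCLCs and tc;Sf1ESCs, held a match. Apoa4 and Apom, both called higher in SCLCs, did not. Counted from the RefSeq start site of each window, the matches began at -128 in Alb, -55 in Afp, -88 and -75 in Apoa1, -121 in Apob, -241 in Rbp4 and -5 in 1 of the windows of Apoe. In Apoa1 and Apob that site lies past the annotated start, and the printed bases stop 50 and 29 bases before it. The homeodomain letters were in 1 of the 11 windows, that of Afp at -104, against 1.47% of all windows. The printed bases of Alb hold TTAATGATC, which differs from these letters at 1 position and was not counted. No contrast between Alb and Afp is read from this search. The GATA letters AGATAA or TGATAA were in 1 window, past the start site of Apoa1, against 18.6% of all, and the HNF4 letters CAAAGTCCA were in 0 of the 11 against 0.475% of all. These matches are a description of the letters in the windows, and binding was not measured.

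Afp encodes alpha-fetoprotein, the main plasma protein of the fetus, which the yolk sac and fetal liver secrete. Its counts were 0 and 6 in the tcESC libraries, 1 and 0 in tc;Sf1ESCs, 604 and 1400 in SCLCs and 68 and 35 in todPGCLCs. Both SCLC libraries lay above all the others, and the todPGCLC libraries above all the ESC libraries. In CPM this was 35.5 ± 17.9 (SD, n = 2) in SCLCs and 1.89 ± 0.814 in todPGCLCs. Since the tc;Sf1ESCs had 1 count in all, the ratio of SCLCs to tc;Sf1ESCs was 1932 with an exact 95% interval of 346 to 76355, which covers counting error only. An antisense gene that overlaps Afp had at most 7 counts in a library. Alb, which encodes albumin, the carrier that replaces alpha-fetoprotein after birth, had 0 and 2 counts in tcESCs, 0 and 0 in tc;Sf1ESCs, 1 and 1 in SCLCs and 1 and 0 in todPGCLCs. It stood at or under the measurable level in every library, so a change of Alb was not detectable at this depth, while its neighbour was at 22.8 and 48.1 CPM in SCLCs. Afm, which encodes afamin, a vitamin E carrier of the same family 10025 bp from Afp, was at 2.37 ± 0.149 CPM in SCLCs against 2.03 ± 0.568 CPM in tc;Sf1ESCs and was not called (log2 fold change 0.28, adjusted p = 0.344).

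Ttr and Rbp4 encode the proteins that carry thyroxine and retinol in blood, transthyretin and retinol binding protein, which circulate as a complex. Ttr had 0 counts in all 4 ESC libraries, 1240 and 3411 in SCLCs and 15 in each todPGCLC library. In CPM, Ttr was at 46.8 and 117 in SCLCs and at 0.545 and 0.565 in todPGCLCs. It was at least 732-fold higher in SCLCs than in tc;Sf1ESCs, computed against 3 counts in each library. Rbp4 had 23 and 26 counts in tcESCs, 6 and 7 in tc;Sf1ESCs, 1740 and 3074 in SCLCs and 48 and 66 in todPGCLCs. Its groups did not overlap, and the order was SCLCs, todPGCLCs, tcESCs and tc;Sf1ESCs. The fitted log2 fold change of Rbp4 in SCLCs was 8.49 (standard error 0.360) against tc;Sf1ESCs and 6.67 (0.301) against tcESCs. Trf encodes transferrin, the iron carrier. It had 5 and 3 counts in tcESCs, 1 and 3 in tc;Sf1ESCs, 1 and 2 in SCLCs and 0 and 3 in todPGCLCs, at or close to the measurable level in each library. In GENCODE M21 a protein-coding gene on the same strand, Gm20425, shares most of the exons of Trf and had 0 counts in every library. By default HTSeq counts reads on exons that 2 genes share for neither, and the annotation used in the counting is not given in the sources used here, so the low counts cannot be read as a low level of Trf.

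Apoa1 and Apoa4 encode apolipoproteins of high-density particles and chylomicrons, and Apom a lipocalin of high-density particles that binds sphingosine-1-phosphate. Apoa1 had 1 and 0 counts in tcESCs, 0 and 1 in tc;Sf1ESCs, 981 and 2002 in SCLCs and 20 and 24 in todPGCLCs. Both todPGCLC libraries were thus above the ESC libraries and far under the SCLC libraries. The ratio of SCLCs to tc;Sf1ESCs was 2876 (exact 95% interval 516 to 113638). Apoa4, which shares the cluster, had 0 counts in all ESC libraries, 59 and 110 in SCLCs and 2 and 1 in todPGCLCs, at least 26.8-fold higher in SCLCs than in tc;Sf1ESCs. Apoc3, between them, had 0 counts in the ESC and todPGCLC libraries and 10 and 23 in SCLCs, and Apoa5, at the end of the cluster, 0 and 3 in SCLCs and 0 in the other libraries. Both were too low to be tested and are named because they share the cluster. Apom had 33 and 23 counts in tcESCs, 27 and 40 in tc;Sf1ESCs, 388 and 969 in SCLCs and 29 and 17 in todPGCLCs. The ESC and todPGCLC libraries overlapped, and only the SCLC libraries stood apart, by 4.31 (standard error 0.471) on the log2 scale against tc;Sf1ESCs.

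Apob, the structural protein of very-low-density particles, was measurable in every library. It had 48 and 37 counts in tcESCs, 68 and 47 in tc;Sf1ESCs, 1347 and 4163 in SCLCs and 200 and 110 in todPGCLCs, and its log2 fold change in SCLCs against tc;Sf1ESCs was 5.55 (standard error 0.572). Apoe, the receptor ligand, differed from the other genes in that it was abundant everywhere. Its level was 881 and 953 CPM in tcESCs, 1451 and 1455 in tc;Sf1ESCs, 1187 and 1195 in SCLCs and 660 and 614 in todPGCLCs, so that the 4 groups did not overlap and SCLCs lay between the ESC lines. The log2 fold change of Apoe in SCLCs was -0.24 (standard error 0.0645) against tc;Sf1ESCs and 0.44 (0.0646) against tcESCs, both under 2-fold. Apoe alone made up 99.5% to 99.8% of the counts on the 10 genes in the ESC libraries, 83.2% and 69.7% in SCLCs and 97.9% and 98.4% in todPGCLCs. The other 9 genes together were at 3.16 to 4.33 CPM in the ESC libraries, at 240.0 and 520 CPM in SCLCs and at 13.9 and 10.2 CPM in todPGCLCs.

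**Figure D1:**
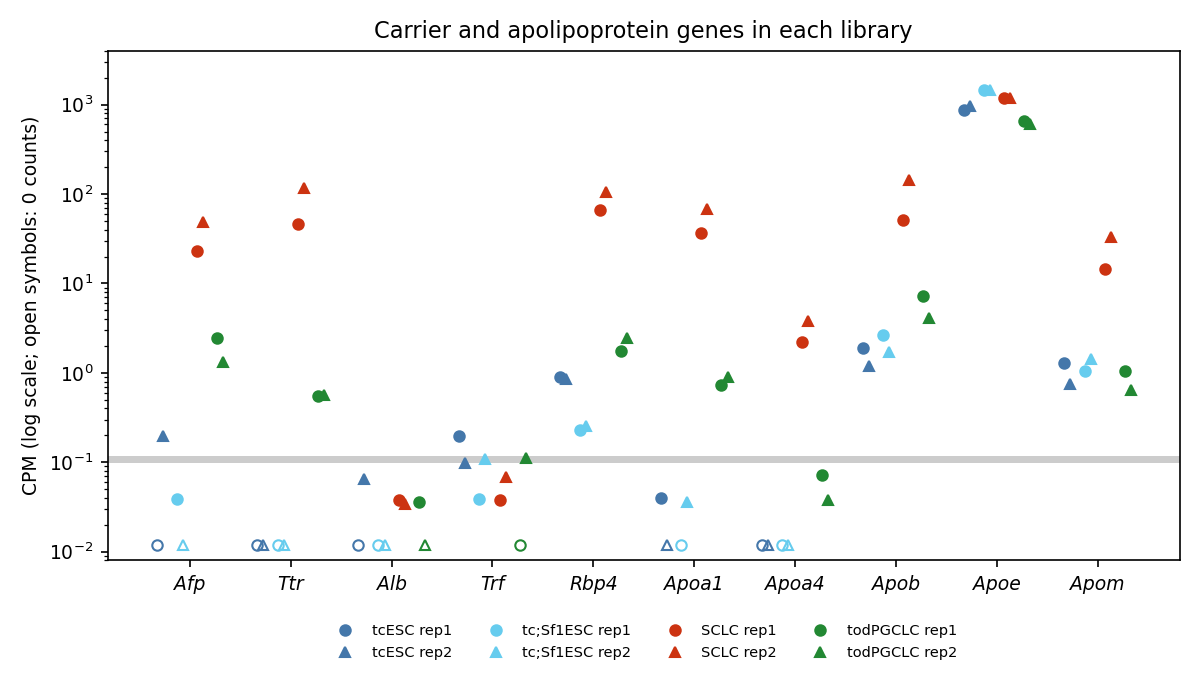
Level of each gene in each of the 8 libraries, in CPM on a log axis, with circles for replicate 1, triangles for replicate 2, open symbols at the foot for 0 counts and a grey band at the level of 3 counts. Afp, Ttr, Rbp4, Apoa1, Apoa4, Apob and Apom were highest in the 2 SCLC libraries, Alb and Trf lay near or under the band, and Apoe was between 614 and 1455 CPM.

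Levels of different genes were compared as RPKM, the CPM per kilobase of exon, with exon lengths from GENCODE M21. In SCLCs the order of mean RPKM was Apoe at 557, Ttr at 69.2, Rbp4 at 63.8, Apoa1 at 42.8, Apom at 23.7, Afp at 10.5, Apob at 6.96 and Apoa4 at 1.65, with Trf and Alb at 0.0160 and 0.0154. Apoe ranked 32 among all genes. The ranges of the 2 SCLC libraries overlapped between Ttr and Rbp4, Rbp4 and Apoa1, Apoa1 and Apom, and Afp and Apob, so these neighbours in the order were not separated beyond the spread of each gene. Within each library, however, Rbp4 was above Apoa1, Apoa1 above Apom and Afp above Apob, and only Ttr and Rbp4 changed places, with Ttr at 39.5 and 98.9 RPKM and Rbp4 at 48.9 and 78.7 RPKM. Apom at 14.5 and 32.9 RPKM and Afp at 6.77 and 14.3 RPKM did not overlap, by a small margin. The step from Apob, at 3.65 and 10.3 RPKM, to Apoa4, at 1.23 and 2.08 RPKM, was also wider than the spread.

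SCLCs derive from tc;Sf1ESCs, and this comparison asks which genes differ after differentiation of the same clone. Of the 10 genes, 8 passed the filter of a mean above 10 counts and Alb and Trf did not. A gene was called with a fold change above 2 and an adjusted p under 0.05 in edgeR's quasi-likelihood test over all genes. Of the 8 genes, 7 were called higher in SCLCs and 0 lower, where 24.1% of the 16481 genes tested were called higher and 18.1% lower. Against tcESCs, which share the SCLC libraries with the first comparison, 7 were again called higher and 0 lower, with 24.3% of all genes higher and 18.3% lower. Nothing is read from these counts, since the levels in SCLCs were known when the genes were chosen. The median log2 fold change of the 8 genes against tc;Sf1ESCs was 8.95, or 7.02 with the genes at 0 counts set to their lower bounds, and the median of all genes was 0.0163. Against tcESCs, Afp was 334-fold higher, Rbp4 102-fold, Apob 66.4-fold and Apom 24.8-fold, Ttr at least 760-fold and Apoa4 at least 27.8-fold, and the ratio of Apoa1 was 3010 (exact 95% interval 540 to 118915). The value of Afp, 8.38 on the log2 scale, rested on the 6 counts of tcESC replicate 2, and was 7.53 without tcESC replicate 1 and 12.93 without tcESC replicate 2.

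The SCLC libraries differed from each other in these genes. Replicate 2 was higher than replicate 1 by 2.82-fold in Apob (95% counting interval 2.65 to 3.0), 2.51-fold in Ttr (2.35 to 2.68), 2.28-fold in Apom and 2.11-fold in Afp. The difference was 1.86-fold in Apoa1, 1.70-fold in Apoa4 and 1.61-fold in Rbp4, while Apoe was at 1.01-fold (0.991 to 1.02). In all, 8 of 8 genes were higher in replicate 2, beside 8089 of the 16481 genes tested. Of the 8, 4 were over 2-fold higher, against 2.94% of the 16481 genes over 2-fold higher in replicate 2 and 4.27% over 2-fold higher in replicate 1. The median log2 ratio of replicate 2 to replicate 1 was 0.99 for the 8 genes, 1.08 without Apoe, and -0.00499 for all genes. With 1 library on each side there is no replicate check of this difference. Without replicate 2 the log2 fold change against tc;Sf1ESCs was 4.61 for Apob and 3.59 for Apom, each over 1.5 times lower as a fold than with both, and all 7 genes were still called. Ttr was then at least 418-fold higher in place of 732-fold, and the ratio of Afp was 1222 in place of 1932. Against tcESCs the log2 values without replicate 2 were 5.12 for Apob, 3.92 for Apom and 7.73 for Afp, and Ttr was at least 434-fold higher.

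Other gene lists differed between the SCLC libraries in both directions. Of all 16481 genes tested, 8089 were higher in replicate 2 and 8351 in replicate 1. Of the 15 markers of visceral and primitive endoderm, 13 were higher in replicate 2, with a median log2 ratio of 0.50, and Cubn, the receptor that takes up vitamin B12 and APOA1, was 2.0-fold higher. The 12 parietal endoderm markers had a median of -0.0170 and the 9 Sertoli cell markers tested -0.13. The ESC markers had a median of -0.52, with 7 of 10 higher in replicate 1, and the germ cell markers of -0.74, with 8 of 10. Medians above that of visceral endoderm were found for the 4 hepatocyte markers tested (0.85), the 6 of definitive gut endoderm (0.65), the 4 steroidogenic (0.56) and the 8 of trophoblast (0.54). Of 22 genes for lipoprotein assembly and lipid transfer, 20 were higher in replicate 2, with a median of 0.20. Fabp1 and Fabp2, fatty acid binding proteins of liver and intestine named here after their values were seen, had 8 and 101 and 10 and 73 counts in replicates 1 and 2. The part of each cell type in the difference between the replicates was not tested.

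**Figure D2:**
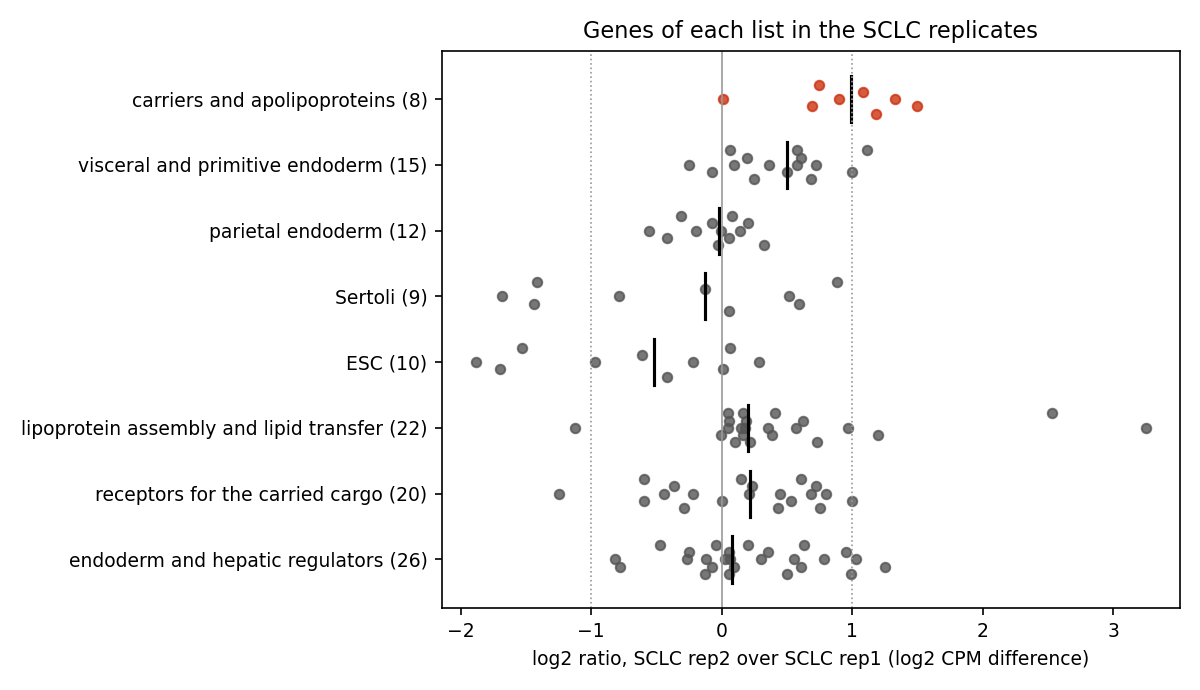
Log2 ratio of SCLC replicate 2 to SCLC replicate 1 for each gene tested, by list, with the number of genes in brackets, a black bar at the median and dotted lines at 2-fold. The carriers and apolipoproteins lie right of 0 with a median of 0.99, visceral and primitive endoderm markers at 0.50, parietal endoderm markers at -0.0170 and ESC markers at -0.52.

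The todPGCLCs shared the organoid with TesLC-derived cells and were compared with the SCLCs and with tcESCs. Expressed as a percentage of the mean CPM in SCLCs, Ttr was at 0.676%, Apoa1 at 1.54%, Apoa4 at 1.84%, Rbp4 at 2.47%, Apom at 3.53%, Afp at 5.34%, Apob at 5.88% and Apoe at 53.5%. The median of these genes was 3.0%, that of the visceral and primitive endoderm markers 2.82%, that of the parietal endoderm markers 3.54% and that of the Sertoli cell markers 14.1%. Single markers spread widely, from 0.391% to 142% in the visceral and primitive endoderm list, 0.373% to 190% in the parietal list and 1.04% to 756% in the Sertoli cell list, and the part of these cells in the level of the carriers in todPGCLCs was not tested. All 8 genes were called higher in SCLCs than in todPGCLCs and 0 lower, where 19.5% of 16707 genes tested were called higher in SCLCs and 18.5% lower. The fitted differences were 161-fold in Ttr, 71.0-fold in Apoa1, 44.5-fold in Rbp4, 30.9-fold in Apom, 20.5-fold in Afp and 18.6-fold in Apob, and Apoa4 had a ratio of 54.8 (exact 95% interval 18.4 to 268). Without SCLC replicate 2 the log2 fold changes of Ttr, Apom, Afp and Apob were 6.52, 4.24, 3.72 and 3.29, where they were 7.33, 4.95, 4.36 and 4.22 with it. Apoe was 2.05-fold higher in SCLCs (log2 fold change 1.04, standard error 0.0685), close to the limit, and fell under 2-fold without todPGCLC replicate 2 (0.98) and with library totals in place of TMM factors (0.90).

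**Figure D3:**
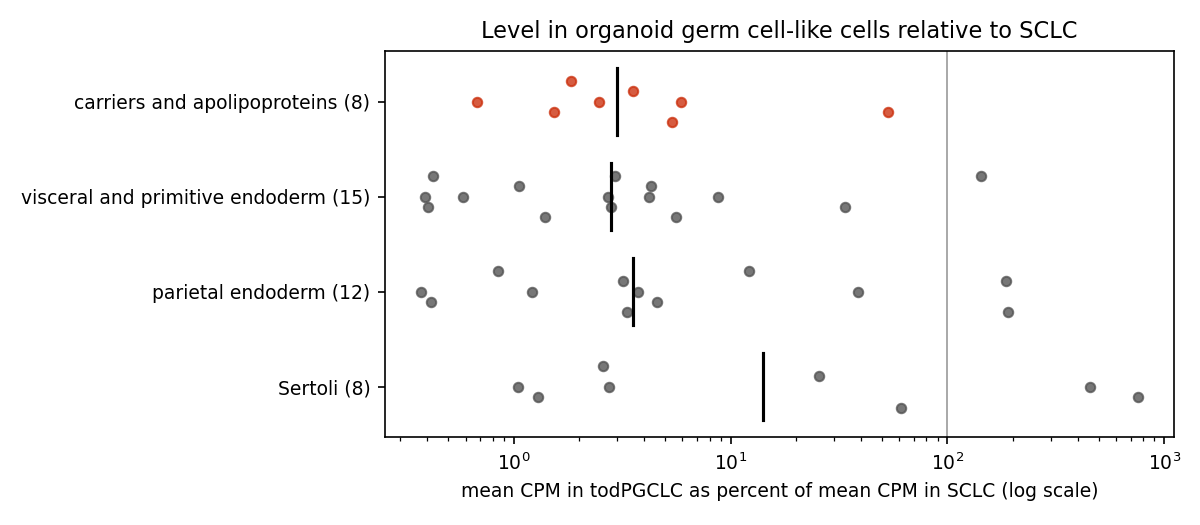
Mean CPM in todPGCLCs as a percentage of mean CPM in SCLCs, on a log axis, for each gene with at least 1 CPM in SCLCs, by list, with a black bar at the median and a line at 100%. The carriers and apolipoproteins run from 0.676% (Ttr) to 53.5% (Apoe) with a median of 3.0%, beside 2.82% for visceral and primitive endoderm markers.

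Against tcESCs, 4 of the 8 were called higher in todPGCLCs and 0 lower, where 18.1% of the 16707 genes tested passed as higher and 11.2% as lower. These were Afp, whose log2 difference was 4.03 (standard error 0.886), Apob with 1.83 (0.632), Rbp4 with 1.19 (0.377), and Apoa1, whose ratio was 45.6 with an exact 95% interval of 7.77 to 1842. The value of Afp rested on the 6 counts of tcESC replicate 2, and was 3.13 without tcESC replicate 1 and 8.59 without tcESC replicate 2. Ttr, with 15 counts in each todPGCLC library against 0, was at least 5.14-fold higher and was not called by edgeR's test. It was called by DESeq2, with no filter beyond 1 count, with the replicate block and without either SCLC library. Apoe had a log2 fold change of -0.60 (0.0680) and Apom of -0.32 (0.584), neither called. Apob and Rbp4 were lost from the calls when either tcESC library was left out, Apob also without todPGCLC replicate 1 and Rbp4 without todPGCLC replicate 2, and both under a stricter adjusted p limit.

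Between the ESC lines, 0 of the 8 genes were called, where 6.04% of the 16481 genes tested were called higher in tc;Sf1ESCs and 5.63% lower. By edgeR's test 2 of the 8 had an unadjusted p under 0.05, and DESeq2 called 1, Rbp4. Rbp4 was at 0.876 ± 0.0408 CPM in tcESCs and 0.242 ± 0.0152 CPM in tc;Sf1ESCs, a log2 difference of -1.82 with a standard error of 0.617, and the libraries did not overlap. Apoe was 1.60-fold higher in tc;Sf1ESCs, with 1453 ± 3.44 against 917 ± 51.1 CPM, a log2 difference of 0.68 with a standard error of 0.0648. Afp, Ttr, Apoa1 and Apoa4 had at most 6 counts in any ESC library.

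Other genes that make, load and take up these particles were followed in 5 lists, of which each gene named below is one of the most abundant called higher or one of the largest decreases unless stated. Their counts in SCLCs against tc;Sf1ESCs stand beside 24.1% of all genes called higher and 18.1% lower. Nothing is read from these counts, since the lists were fixed with earlier results of these data known. Some genes, such as Apol7a, also passed the filter only through their counts in SCLCs. Among 20 other apolipoproteins and plasma lipid genes, 12 were tested between SCLCs and tc;Sf1ESCs, 5 were called higher and 3 lower, and the median log2 fold change was 0.0942. Clu, which encodes clusterin, was at 3.14 ± 0.515 CPM in tc;Sf1ESCs and 69.4 ± 6.06 CPM in SCLCs (log2 fold change 4.51, adjusted p = 4.74e-07). Apoa2, the second protein of high-density particles, had 1 and 1 counts against 190 and 480, a ratio of 323 (exact 95% interval 89.1 to 2673). Apol7a was at least 244-fold higher, and Apol8 rose by 4.70 on the log2 scale (adjusted p = 0.000256). In the other direction Apol6 had a log2 fold change of -5.01 (adjusted p = 6.34e-07), Apod of -1.39 (0.0116, also adjusted) and Apoc2 of -1.21 (0.000360). The ratio of SCLC replicate 2 to replicate 1 was 2.29 in Apoa2, 2.57 in Apol8 and 0.459 in Apod, so these folds depend on the library.

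Of 26 genes for lipoprotein assembly and lipid transfer, 22 were tested, 11 were called higher and 2 lower, beside 24.1% and 18.1% of all genes, with a median log2 fold change of 1.01. Mttp encodes the transfer protein that loads lipid onto APOB, and was at 2.43 ± 0.547 CPM in tc;Sf1ESCs and 181 ± 35.4 CPM in SCLCs, a log2 fold change of 6.26 (standard error 0.222, adjusted p = 7.42e-07). P4hb, the subunit that pairs with MTTP, rose from 635 to 2149 CPM (log2 fold change 1.81, adjusted p = 6.91e-07), Surf4, a cargo receptor for lipoproteins, by 1.44 (3.82e-06), and Soat2, which esterifies cholesterol, by 5.57 (4.90e-06). Angptl4, an inhibitor of lipoprotein lipase, fell by 3.71 on the log2 scale (adjusted p = 3.14e-05) and Lipc, hepatic lipase, by 1.89 (0.00315). The SCLC libraries differed in Angptl4, at 1.81 and 0.791 CPM, so its fold depends on the library. In todPGCLCs Mttp was at 9.65 ± 0.276 CPM, above the 2.04 to 4.88 CPM of the ESC libraries.

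Of 28 other plasma carriers, 15 were tested, 6 were called higher and 5 lower, beside 24.1% and 18.1% of all genes, with a median of 0.280. Tcn2, the vitamin B12 carrier transcobalamin, was at 46.8 ± 1.45 CPM in tc;Sf1ESCs and 247 ± 29.3 CPM in SCLCs (log2 fold change 2.45, adjusted p = 1.09e-06), and Selenop, the selenium carrier, rose from 0.875 to 145 CPM (7.41, adjusted p = 1.19e-07). Fgl1 rose by 3.30 (adjusted p = 0.000325), and was not called against tcESCs (0.61, adjusted p = 0.128). Its rise rested on 9 and 3 counts in the tc;Sf1ESC libraries, so this fold depends on the library. Gc, the vitamin D carrier and a relative of Alb and Afp, fell from 12.6 and 12.9 CPM to 0.377 and 1.51 CPM (log2 fold change -3.67, adjusted p = 0.000138), Fetub fell by 4.29 (7.29e-07) and Ttpa, which transfers vitamin E, by 2.90 (0.000471). Against tcESCs Ttpa was not called (-0.54, adjusted p = 0.282). The SCLC libraries differed in Gc and in Ttpa, which was at 4.45 and 1.44 CPM, so that either library alone would move these folds by over 1.5 times. Within the albumin family Afp was thus high, Alb not measurable, Afm without a call and Gc lower in SCLCs.

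Receptors for the carried cargo were tested for 20 of 22 genes, and 11 were called higher and 3 lower, beside 24.1% and 18.1% of all genes, with a median of 1.41. Cubn, Lrp2 and the adaptor Dab2 form the endocytic machinery for vitamin and lipoprotein uptake in visceral endoderm and kidney, and they also stand on the list of visceral endoderm markers. Cubn was at 1056 and 2107 CPM in SCLCs against 0.397 and 0.501 in tc;Sf1ESCs (log2 fold change 11.8, adjusted p = 1.49e-06), Lrp2 rose by 7.45 (6.90e-07) and Dab2 by 9.16 (6.51e-07). Lrpap1, the chaperone of that receptor family, rose by 2.47 (adjusted p = 5.18e-06). Stra6, the cell surface receptor for RBP4 and named here after its values were seen, had 2 and 0 counts in tc;Sf1ESCs and 1337 and 1259 in SCLCs, a ratio of 1251 (exact 95% interval 346 to 10339). The related Stra6l fell by 2.41 (adjusted p = 0.000196) but was higher in SCLCs than in tcESCs, by 1.74 (adjusted p = 0.00653), with 0.157 and 0.196 CPM in tcESCs, 3.09 and 3.29 in tc;Sf1ESCs and 0.679 and 0.481 in SCLCs. Tfrc, the transferrin receptor, fell by 1.44 (0.000616) and Lrp1, a receptor for APOE, by 1.34 (0.000313).

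Of 30 regulators of endoderm and liver, 26 were tested, 20 were called higher and 2 lower, beside 24.1% and 18.1% of all genes, with a median of 2.20. Gata4 rose from 6.62 to 423 CPM (log2 fold change 6.05, adjusted p = 5.81e-08), Gata6 by 7.06 (6.90e-07), Sox17 by 7.21 (5.81e-08) and Hnf4a by 3.17 (6.44e-06). Nr5a2, a nuclear receptor of ESCs and liver, fell by 3.95 (adjusted p = 4.63e-06) and Nr1h3 by 1.34 (0.0476). The forkhead genes whose letters were searched in the promoters are named after their values were seen. Foxa2 was at 61.1 and 51.3 CPM in SCLCs against 0.501 and 0.108 in tc;Sf1ESCs, a log2 difference of 7.58 with a standard error of 0.362, Foxa3 at 9.89 and 9.56 against 0.926 and 0.976 (3.40, 0.217), and Foxa1 at 1.25 and 1.92 against 0.386 and 0.614 (1.70, 0.417). Foxa1 was higher in todPGCLCs than in SCLCs, at 2.72 and 5.99 CPM (log2 fold change of SCLCs against todPGCLCs -1.31, adjusted p = 0.0205).

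**Figure D4:**
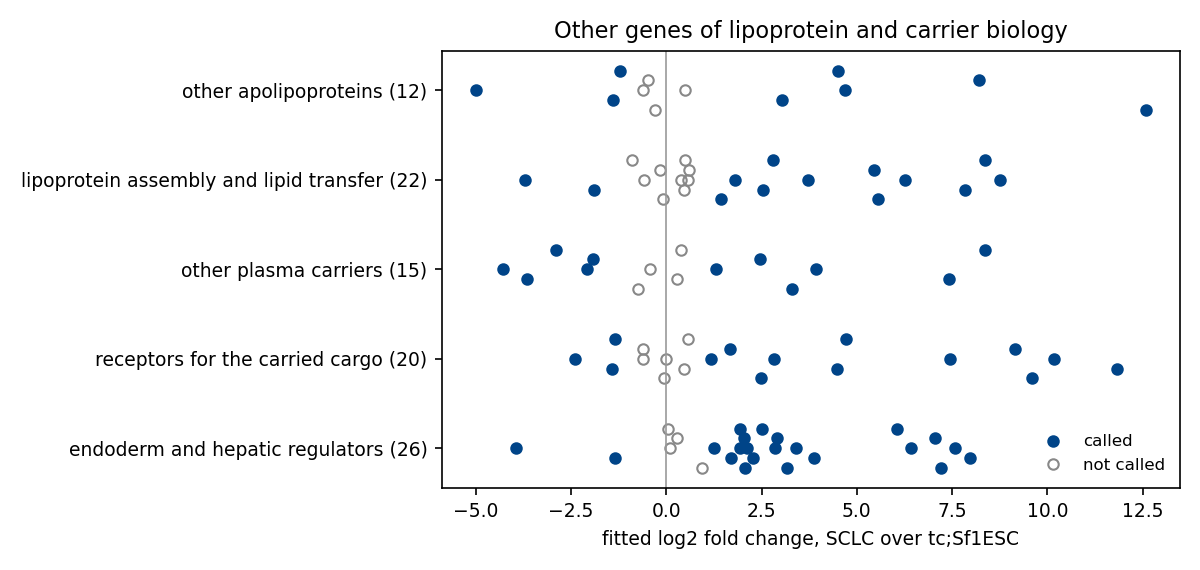
Fitted log2 fold change of SCLCs against tc;Sf1ESCs for each gene tested in the 5 lists, filled where called and open where not, with the number of genes in brackets (the position of genes at 0 counts in tc;Sf1ESCs depends on the prior count of the fit). Regulators and receptors lie mostly right of 0, with 20 of 26 and 11 of 20 called higher, and the other apolipoproteins spread both ways, with 5 higher and 3 lower.

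In todPGCLCs compared with tcESCs the same lists gave 3 genes higher and 4 lower of 12 other apolipoproteins, 7 and 3 of 23 assembly genes, 7 and 4 of 16 plasma carriers, 10 and 1 of 20 receptors, and 11 and 1 of 26 regulators, where 18.1% of all genes were higher and 11.2% lower. Apoa2 had 75 and 87 counts in todPGCLCs against 1 and 1 in tcESCs, and Stra6 98 and 96 against 2 and 2. Between SCLCs and todPGCLCs, 6 of 12 apolipoproteins were higher in SCLCs and 2 lower, 13 and 4 of 23 assembly genes, 5 and 6 of 16 plasma carriers, 8 and 5 of 20 receptors, and 15 and 2 of 26 regulators, where 19.5% of all genes were higher and 18.5% lower.

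Hepatocyte markers were followed because the liver makes the same carriers. The 14 markers summed to 4.83 and 9.59 CPM in SCLCs, against 1.38 to 5.82 CPM in the other libraries. Ugt2b1 and Cyp7a1, which define mature hepatocytes, had 0 counts in both SCLC libraries, and Alb 1 in each. Of the 4 markers tested between SCLCs and tc;Sf1ESCs 2 were called higher and 1 lower, beside 24.1% and 18.1% of all genes. Named after its values were seen, Fgb, a fibrinogen chain, had 38 and 93 counts in SCLCs and 0 or 1 in the ESC libraries.

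The genes around the carriers were called in both directions. Within 100 kb of the 10 genes lie 56 other protein-coding genes, 42 were tested between SCLCs and tc;Sf1ESCs, and 8 were called higher and 10 lower, beside 24.1% and 18.1% of all genes. Those called higher were Rassf6, Rab6b, Srprb, Pde6c, Cblc, Nectin2, Msh5 and Clic1, and those called lower B4galt6, Cep55, Bcam, Relb, Tomm40, Apoc2, Ly6g6e, Ly6g6d, Mpig6b and Ly6g6c. At Rbp4, Pde6c, a phosphodiesterase of cones 7500 bp away, had 0 counts in the ESC libraries and 21 and 50 in SCLCs. Beside Apoe, Tomm40 fell by 1.30 on the log2 scale (adjusted p = 2.68e-06) at a distance of 2125 bp, Apoc2 fell by 1.21, Apoc1 had a log2 fold change of -0.29 that was not called, and Apoc4 had at most 1 count in a library.

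The genes whose levels were most alike to those of Afp, Ttr, Rbp4, Apoa1 and Apoa4, the 5 that passed the filter and had a mean under 1 CPM in the ESC libraries, were found by Pearson correlation of log2 CPM over the 8 libraries with the mean of the 5. The 5 most alike outside the lists were Ctsz (r = 0.999), Lpcat4 (0.999), Agpat4 (0.998), Pga5 (0.996) and Shtn1 (0.996). With 4 groups of 2 libraries such values are common, and 510 of 2502 genes with at least 100 CPM in SCLCs had r above 0.9. Ctsz, the protease cathepsin Z, was at 43.5 and 43.5 CPM in tcESCs, 40.0 and 36.9 in tc;Sf1ESCs, 367 and 464 in SCLCs and 84.5 and 86.2 in todPGCLCs. Lpcat4 and Agpat4, which make phospholipids, were at 181 and 166 CPM in SCLCs and at 28.4 and 38.4 CPM in todPGCLCs, and Pga5, a pepsinogen, at 239.6 and 11.3 CPM.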

How the data were processed

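Poly(A) RNA from 8 libraries, 2 in each of 4 groups, was sequenced by the study. The authors deposited raw counts per Ensembl gene, made by HTSeq after trimming with Trim Galore and alignment with STAR 2.4.0 to GRCm38; their processing notes also name Picard and DESeq2. The annotation release and the strand setting of the counting are not given in the sources used here. Of all reads, 35.6% to 41.6% were on no gene, including 20.5% to 27.5% that aligned to more than 1 place, and these were left out. With 25411033 to 30680191 counts on genes, intervals and the level of 3 counts cover counting error only.

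IDs were named from GENCODE M21, which named 45229 of 46078. CPM used the gene totals. Folds were fitted in edgeR 4.0.16 (R 4.3.3, limma 3.58.1) by quasi-likelihood with TMM factors, a mean above 10 counts and Benjamini-Hochberg adjustment, and a gene was called at over 2-fold with an adjusted p under 0.05. The 6 libraries of the ESC lines and SCLCs gave the 3 comparisons among them, and all 8 libraries gave those with todPGCLCs; comparisons share libraries. Where a group had 0 counts the fold is a bound against 3 counts per library, and with 1 to 3 counts an exact interval of the ratio is given. The fit was tested on simulated data with known changes. Samples are labelled as biological duplicates, and p-values measure the spread between these duplicates.

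The genes and lists were chosen with earlier results of these data known. The genes named from each list were the 4 with the highest SCLC level among those called higher in SCLCs than in tc;Sf1ESCs and the 3 with the largest decrease, with any others said to be named after their values were seen. Some genes of the lists are counted but not reported here by name. Alternatives were other scalings and low-count filters, DESeq2 1.42.0, a test against a 2-fold change, an adjusted p limit of 0.01, a replicate block, all libraries in 1 fit and each library left out.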

Additional observations from a re-analysis of the deposited data

How the results depend on the processing

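The counts of carriers and apolipoproteins called higher in SCLCs stayed at 7 of 8 against tc;Sf1ESCs and against tcESCs when each library was left out, and at 7 to 8 against todPGCLCs. Between the ESC lines, where 0 were called, 1 (Rbp4, lower in tc;Sf1ESCs) was called with no filter beyond 1 count, with DESeq2, with all 8 libraries in the fit and without either SCLC library (0 to 1 over the libraries left out). In todPGCLCs against tcESCs, 4 became 5 with DESeq2 and with no filter beyond 1 count, where Ttr was added, and 2 with the test against a 2-fold change and with the adjusted p limit of 0.01, and 2 to 5 with libraries left out, 2 without tcESC replicate 1 or replicate 2. Over all genes, the test against a 2-fold change called 594 in place of 1923 between the ESC lines and 3078 in place of 4906 in todPGCLCs against tcESCs. With each library left out, the genes called numbered 6568 to 7130 in SCLCs against tc;Sf1ESCs, 6508 to 7184 against tcESCs, 5764 to 6646 against todPGCLCs, 4421 to 5016 in todPGCLCs against tcESCs and 1119 to 2304 between the ESC lines, where the count was 1136 without tcESC replicate 1, 1119 without tcESC replicate 2, 1206 without tc;Sf1ESC replicate 1 and 1240 without tc;Sf1ESC replicate 2. A group left with 1 library was assumed to vary like the others. The cause was not tested. Of 628 alternative fold changes of the carriers and apolipoproteins, 589 were within 1 standard error and 0 called values changed sign.

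Deviations from the group means were not shared between samples of like number (correlations of -0.0259 to 0.0624), which thus share only a number. With the replicate block 1 of the 8 genes, Rbp4, was called between the ESC lines and 5 in todPGCLCs against tcESCs, where Ttr was added. With library totals only, the median of all genes moved to 0.107 in todPGCLCs against tcESCs and to -0.146 in SCLCs against todPGCLCs on the log2 scale. Depth limits what can be said of Alb, which was under 3 counts in all libraries.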

Other observations

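Markers of trophoblast, the outer lineage of the embryo, were also followed. Of 10, 8 were tested between SCLCs and tc;Sf1ESCs, 5 were called higher and 0 lower, beside 24.1% and 18.1% of all genes tested, with a median log2 fold change of 3.41. Their levels summed to 791 and 1008 CPM in the SCLC libraries, against 102 to 407 CPM in the others. Krt8 and Krt18, keratins of simple epithelia in general, made up most of that sum, with 339 and 422 CPM and 374 and 466 CPM, and Cdx2, Tfap2c and Plet1 were not called. All 8 were higher in SCLC replicate 2 than in replicate 1, beside 8089 of 16481 genes tested, with a median log2 ratio of 0.54. Of 6 definitive gut endoderm markers tested, 3 were called higher and 2 lower in SCLCs, of 6 renal markers 4 and 2, of 4 steroidogenic markers 1 and 2, and of 10 germ cell markers 2 and 3, against the same shares of all genes. The germ cell markers summed to 1149 and 1145 CPM in todPGCLCs against 454 to 590 CPM in the other libraries.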
